A study of Mus musculus with 9 samples.

Results

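Foxa1, Foxa2, Sox17, Gata4, Gata6 and Hnf4a, which encode transcription factors of the endoderm, and Afp, Alb and Ttr, which encode proteins that the yolk sac and liver secrete, were followed across cultured germline stem (GS) and embryonic stem (ES) cells of the mouse. These 9 genes, of 32496 features on the array, with and without a gene symbol, were chosen by measured brightness, since Foxa2 and Afp were far brighter in GS than in ES cells. The levels of the members in GS and ES cells are therefore a description, without a test. The comparison of Xist knockout (KO) with wildtype GS cells played no part in that choice and was tested.

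The endoderm is the germ layer that forms the gut, liver and pancreas, and separate extraembryonic endoderm lines the early embryo and yolk sac. FOXA proteins are pioneer factors that open compact chromatin at endodermal and hepatic enhancers, and GATA4, GATA6 and SOX17 act early in the same lineages. HNF4A then drives the hepatocyte programme, in which Afp (alpha-fetoprotein) is the fetal serum protein and Alb (albumin) its adult neighbour and paralog. None of these genes is a usual marker of spermatogonia, although Gata4 is known from the somatic cells of the testis.

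GS cells are cultured germline stem cells, here from the testis of mice after birth. The 3 groups, of 3 samples each, were GS cells of wildtype genotype on the DBA/2 background, GS cells with the Xist KO genotype on the same background, and wildtype ES cells on C57BL/6. The series text describes the 3 samples as independent and taken from each cell line, without the number of lines or whether cultures were separate. A p-value therefore covers only the spread among samples within groups, which may be technical. The fit pooled this spread over all 3 groups, so the comparison of Xist KO with wildtype GS cells also used the spread of the ES arrays. Cell type and genetic background changed together between GS and ES cells and cannot be told apart. Slides were read from the slot number in the name of each deposited scan, not from a sample label. By these numbers, no slide held both wildtype GS and ES arrays. Xist KO GS arrays shared 1 slide with the wildtype GS arrays and another with ES arrays, and were the only link between them.

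Each sample was measured on 1 single-colour Agilent array. A log2 level here is log2 of the background-subtracted signal minus the 75th percentile of its array, so that 0 stands for the 75th percentile. The scanner called between 52.3% (ES replicate 1) and 73.1% (Xist KO GS replicate 1) of probes well above background, and 0 spots were saturated. Neither of the 2 probes for Xist, the non-coding RNA of X inactivation, rose above background on any of the 9 arrays, so Xist did not check the genotype labels. Of 14 spermatogonial markers, 14 were well above background on all wildtype GS arrays, 13 on all Xist KO GS arrays and 10 on all ES arrays. Zbtb16, at a mean of 4.62 in Xist KO GS cells, lacked a value on an array there because its spot was flagged. A missing value counted as not above background. Gfra1, Nanos2 and Ret were well above background on none of the ES arrays. Of the 14, 10 were called higher in wildtype GS and 3 in ES cells. All 12 ES markers were higher in ES cells in both comparisons.

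The promoters of Afp and Alb are shown because these paralogs lie next to each other on chromosome 5 and only Afp had signal in GS cells, and that of Foxa2 because it is the other member that was bright in GS cells. Each run is the 250 bases before the start annotated by RefSeq on GRCm38.p6, with matches to any of 5 searched motifs in capitals, on either strand. The first FOXA core, TGTTTAC, occurred in 3.17% of 32851 promoter windows of that length and the second, TGTTTGC, in 4.30%. The motif AGATAA for factors of the Gata family occurred in 9.99%, the box TATAAA in 12.4% and the box CCAAT in 33.9%. Promoter windows were used for 5 of the 9 members, and the annotated start need not be the one used in these cells. The Afp window is chr5:90490464-90490713 on the plus strand, the Alb window chr5:90460620-90460869 on the plus strand, and the Foxa2 window, the most upstream of its 3 annotated starts, chr2:148046970-148047219 on the minus strand.
Afp: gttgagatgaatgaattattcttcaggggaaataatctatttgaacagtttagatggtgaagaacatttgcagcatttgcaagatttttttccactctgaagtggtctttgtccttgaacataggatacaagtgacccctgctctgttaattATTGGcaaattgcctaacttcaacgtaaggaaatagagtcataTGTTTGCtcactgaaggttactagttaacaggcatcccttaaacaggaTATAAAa
Alb: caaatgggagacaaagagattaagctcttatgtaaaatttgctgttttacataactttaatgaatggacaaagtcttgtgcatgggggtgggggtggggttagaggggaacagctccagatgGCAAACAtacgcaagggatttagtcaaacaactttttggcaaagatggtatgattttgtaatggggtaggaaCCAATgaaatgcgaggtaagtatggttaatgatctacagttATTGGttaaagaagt
Foxa2: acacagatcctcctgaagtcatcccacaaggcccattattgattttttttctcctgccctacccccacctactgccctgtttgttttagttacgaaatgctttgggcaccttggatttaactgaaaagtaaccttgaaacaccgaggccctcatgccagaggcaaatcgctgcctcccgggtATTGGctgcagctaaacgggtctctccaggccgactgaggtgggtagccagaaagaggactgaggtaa
Both Afp and Alb carried the second FOXA core. In Afp it lay 55 to 49 bases before the start, with a CCAAT match on the minus strand at 98 to 94 bases and a TATA box match at 7 to 2 bases. In Alb it lay on the minus strand at 128 to 122 bases, and CCAAT matched once on each strand. The Foxa2 window had 1 match, a CCAAT on the minus strand 68 to 64 bases before the start. Of its other starts, the second had no match and the third a GATA match at 183 to 178 bases and a TATA box match on the minus strand at 208 to 203 bases.

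Afp was bright on all GS arrays and had no signal above background in ES cells. Its log2 level was 2.50, 2.66 and 2.40 in wildtype GS replicates 1 to 3, 2.78, 2.74 and 2.93 in Xist KO GS cells, and -6.20, -6.44 and -7.15 in ES cells, where none of the arrays placed the probe above background. All 6 GS arrays were thus above all 3 ES arrays. The mean was 2.52 ± 0.13 (SD, n = 3) in wildtype GS cells and 2.82 ± 0.10 (SD, n = 3) in Xist KO GS cells. Because the ES signal was not well above background, its difference is a bound, the GS mean against the higher, on each ES array, of the probe's own level and the dimmest level called well above background. Afp was at least 160-fold higher in wildtype GS and at least 196-fold higher in Xist KO GS than in ES cells.

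The Afp probe was printed on 10 spots of each array, which gives a check within the array. The spots that carried no outlier flag had a coefficient of variation of 1.23% to 3.74% on the 6 GS arrays, and of 8.99%, 44.3% and 9.51% on the 3 ES arrays. On Xist KO GS replicate 2, 1 spot at 5934 was flagged and left out, the other spots there lying between 8291 and 9277. The spots of any 1 GS array were close together. Over all 6 GS arrays the unflagged spots lay between 4999 and 9277, and over the ES arrays the spots lay between 5.68 and 21.6, with the widest scatter on ES replicate 2.

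**Figure D1:**
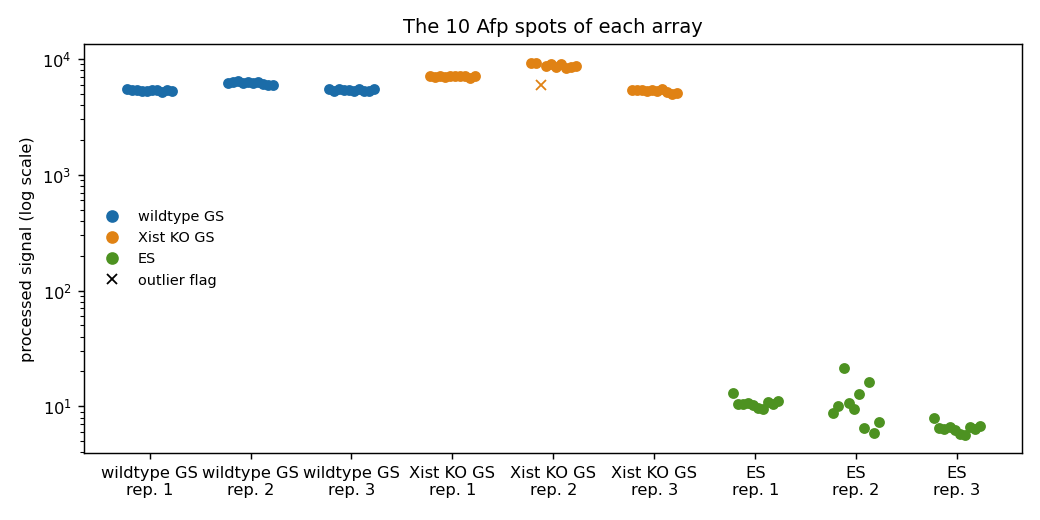
Processed signal (log axis, not scaled between arrays) of the 10 Afp spots on each of the 9 arrays, with the flagged spot marked. The unflagged GS spots lie between 4999 and 9277 and the ES spots between 5.68 and 21.6.

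Foxa2, the pioneer factor that is needed for foregut and node, was read by 2 probes. By the brighter probe its log2 level was 2.20, 2.18 and 1.97 in wildtype GS replicates 1 to 3, 1.82, 1.84 and 2.06 in Xist KO GS cells, and -5.77, -6.34 and -7.01 in ES cells, again without background being exceeded on an ES array. The other probe read -0.09, -0.31 and -0.35 in wildtype GS cells, -0.54, -0.67 and -0.39 in Xist KO GS cells, and -6.34, -7.26 and -7.33 in ES cells. Both probes therefore separated all GS from all ES arrays. The mean by the brighter probe was 2.12 ± 0.12 (SD, n = 3) in wildtype and 1.91 ± 0.14 (SD, n = 3) in Xist KO GS cells. The bound over ES was at least 121-fold in wildtype GS and 104-fold in Xist KO GS cells by the brighter probe, and at least 23.4-fold and 19.2-fold by the other. Of 1374 features that were above background in wildtype GS cells and on no ES array, 6 had a bound at least as large as that of Foxa2 and 3 one at least as large as that of Afp, the gene itself included. In Xist KO GS cells these were 8 and 2 of 1380.

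Foxa1, the close paralog of Foxa2, did not share its pattern. Its log2 level was -4.47, -3.93 and -4.45 in wildtype GS cells, and -5.05, -4.63 and -5.34 in Xist KO GS cells, of which the last was not well above background. In ES cells it was -0.88, -4.72 and -5.74 in replicates 1 to 3, the last again not well above background. ES replicate 1 thus stood 3.83 above the next ES array, by a probe with a single spot that carried no flag, and the groups overlapped. Wildtype GS minus ES was -0.50 with this array and 0.95 without it, and Xist KO GS minus ES was -1.22 with it and 0.22 without it. On that array 21 features were at least 8-fold above both other ES arrays, against 12 and 9 on the other ES arrays.

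Gata4, a zinc finger factor of endoderm, heart and gonad, was dim but above background on all 9 arrays. Its log2 level was -4.36, -3.89 and -3.98 in wildtype GS, -3.73, -3.70 and -3.95 in Xist KO GS and -3.73, -3.21 and -3.87 in ES cells. Wildtype GS lay below ES cells by a mean of -0.47 without overlap, and Xist KO GS overlapped them at -0.19. Gata6, which directs primitive endoderm, was well above background on 1 of the 9 arrays, ES replicate 2, at -4.78. Its levels were -6.71 to -6.08 in wildtype GS, -7.27 to -6.28 in Xist KO GS and -5.87 to -4.78 in ES cells.

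Sox17, which specifies definitive and extraembryonic endoderm, did not exceed background on a GS array by either of its 2 probes. The GS levels lay between -7.16 and -5.27 by one probe and between -8.34 and -7.31 by the other. It exceeded background on ES replicate 3 at -4.89 by the first, and on ES replicates 2 and 3 at -4.80 and -4.07 by the second. With the ES signal itself partly at background, no fold is given. Hnf4a, the nuclear receptor that maintains hepatocyte identity, was higher in ES cells, the opposite order to Foxa2 and Afp. Its level was -3.64, -3.78 and -3.77 in ES cells, -5.77, -5.92 and -5.79 in wildtype GS cells, and -5.45, -5.64 and -5.56 in Xist KO GS cells, where only replicate 1 was well above background. The ES level was at least 3.20-fold that of wildtype GS cells, and all 3 ES arrays lay above all 6 GS arrays.

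Alb and Ttr (transthyretin, the thyroid hormone carrier) exceeded background on none of the 9 arrays. Alb lay between -7.62 and -6.58 on the GS arrays and between -7.16 and -5.81 on the ES arrays. Ttr lay between -8.11 and -7.03 on the GS arrays and between -7.21 and -6.24 on the ES arrays. No order of the groups can be read at these levels.

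**Figure D2:**
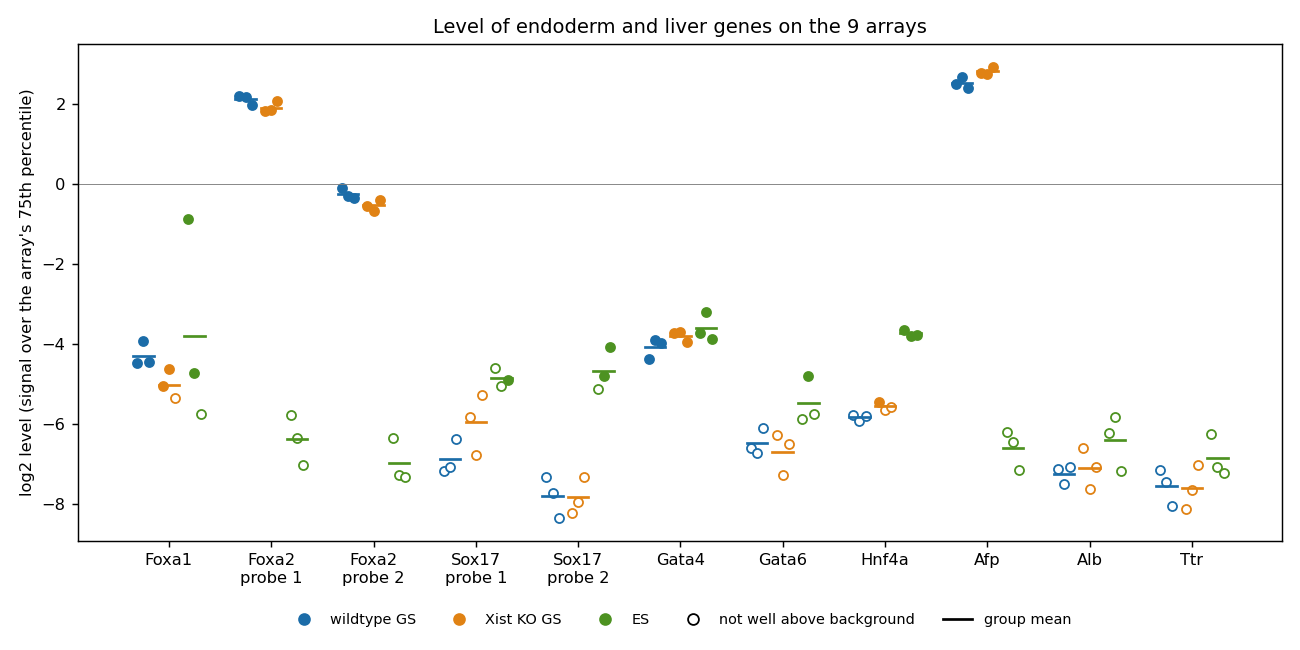
Log2 level of each member probe on each array (points, n = 3 per group), relative to the 75th percentile of the array, with open points not well above background. Afp and both Foxa2 probes separate the GS groups from ES cells, Hnf4a runs the other way, and Alb and Ttr have open points only. Levels of different probes cannot be compared.

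Of the 9 members, 5 passed the filter, which required a probe clear of background throughout at least 1 group: Foxa1, Foxa2, Gata4, Hnf4a and Afp. Between wildtype GS and ES cells, the groups did not overlap for 4 of these 5, against 80.6% of all 21055 features tested. Between Xist KO GS and ES cells they did not overlap for 3 of 5, against 74.5%. Foxa2 and Afp were chosen for their difference between GS and ES cells and passed the filter only through GS cells. Hnf4a passed only through ES cells. Both counts are therefore a description. Both comparisons share the ES arrays. In these bulk samples, fewer cells expressing a gene and less RNA per cell cannot be told apart.

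Xist KO GS cells were then compared with wildtype GS cells, the contrast named in the series title. By limma with Benjamini-Hochberg adjustment over 21055 features, 0 of the 5 tested members were called at an adjusted p under 0.05, where 0.0237% of all features (5) were called. At an unadjusted p under 0.05, 1 of 5 passed (Hnf4a), against 12.6% of features. Afp was higher in Xist KO GS cells by 0.29 on the log2 scale (SE 0.221, 95% confidence interval -0.21 to 0.80, limma adjusted p = 0.585), with all 3 Xist KO arrays above all 3 wildtype arrays. Foxa2 differed by -0.21 (SE 0.269, interval -0.83 to 0.40, limma adjusted p = 0.75) with overlapping groups by its brighter probe, and by -0.28 (SE 0.246, limma adjusted p = 0.651) without overlap by the other. The intervals of Afp and Foxa2 leave room for differences up to 0.80 and 0.83 in size on the log2 scale. Their widths include the spread of ES signals that were not above background, so they do not describe the GS spread alone. For ES cells the SD was 0.49 for Afp and 0.62 for the brighter Foxa2 probe. Within either GS group it was 0.14 or lower for both probes.

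The remaining members gave wider or dimmer comparisons. Foxa1 differed by -0.72 (interval -3.14 to 1.69, limma adjusted p = 0.786) and Gata4 by 0.28 (interval -0.16 to 0.73, limma adjusted p = 0.547). The Foxa1 interval likewise used the ES spread, an SD of 2.56 with ES replicate 1 far above the others. The Foxa1 SD was 0.31 in wildtype GS and 0.36 in Xist KO GS cells. Hnf4a differed by 0.27 (interval 0.06 to 0.48, limma adjusted p = 0.342), but passed the filter only through ES cells and was well above background on 1 of the 6 GS arrays. The groups did not overlap for Foxa1, Hnf4a and Afp, 3 of 5 tested members, against 29.9% of all features. Of these, 2 were higher in Xist KO GS, against 22.1% of features, and 1 in wildtype GS cells, against 7.76%. That 1, Foxa1, passed the filter only through wildtype GS cells, the group where it was higher, so these counts are a description. Sox17, Gata6, Alb and Ttr were not tested.

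**Figure D3:**
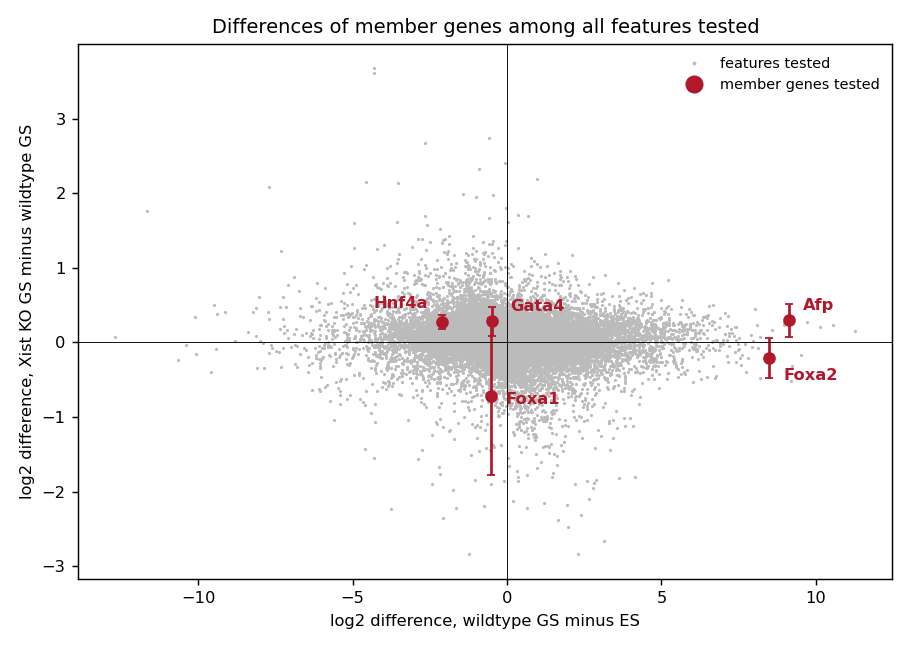
Log2 difference of Xist KO minus wildtype GS (vertical) against that of wildtype GS minus ES (horizontal) for all 21055 features tested (grey) and the 5 tested members (red, vertical bars ± SE of the limma fit). Afp and Foxa2 lie far to the right at 9.12 and 8.49 and Hnf4a to the left at -2.10, positions that rest on signals at background in ES or wildtype GS cells, for which only the bounds in the text hold. All 5 lie between -0.72 and 0.29 on the vertical axis. Both axes use the wildtype GS arrays.

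The genes next to Afp differed among themselves, some higher in GS cells, some not called and some at background. Reading along chromosome 5 in RefSeq order, Adamts3, Cox18, Ankrd17 and Alb come before Afp, and Afm, Albfm1, Rassf6 and Cxcl5 after it. Alb and its other paralog Afm exceeded background on none of the arrays, and Albfm1 had no probe. Cox18 (mitochondrial insertase) and Ankrd17 were above background on all 9 arrays and differed between wildtype GS and ES cells by -0.03 and 0.20, neither of them called. Adamts3 exceeded background on 2 wildtype GS arrays, 1 Xist KO GS array and none of the ES arrays, and was not tested. Rassf6 was at least 2.33-fold higher in wildtype GS cells (limma adjusted p = 0.0017) and the chemokine gene Cxcl5 at least 2.66-fold (limma adjusted p = 1.47e-05). Both passed the filter only through GS cells, and their tests used ES values at background.

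Around Foxa2 on chromosome 2, several neighbours were called higher in wildtype GS cells, among them the genes for the cell surface proteins Cd93 and Thbd. Cd93 was higher by 4.13 (limma adjusted p = 2.85e-07) and Thbd, thrombomodulin, by 1.15 (limma adjusted p = 0.00397). In Xist KO GS minus ES, Thbd was not called (0.38, limma adjusted p = 0.224). Pax1 was at least 1.26-fold higher in wildtype GS cells (limma adjusted p = 0.00158), and also passed the filter only through GS cells. Nkx2-2, Sstr4 and Nxt1 were lower by -0.76, -1.20 and -0.54, and Xrn2 was higher by 0.38. Calls made up 76.3% of all features tested in this comparison, and 74.3% in Xist KO GS minus ES.

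**Figure D4:**
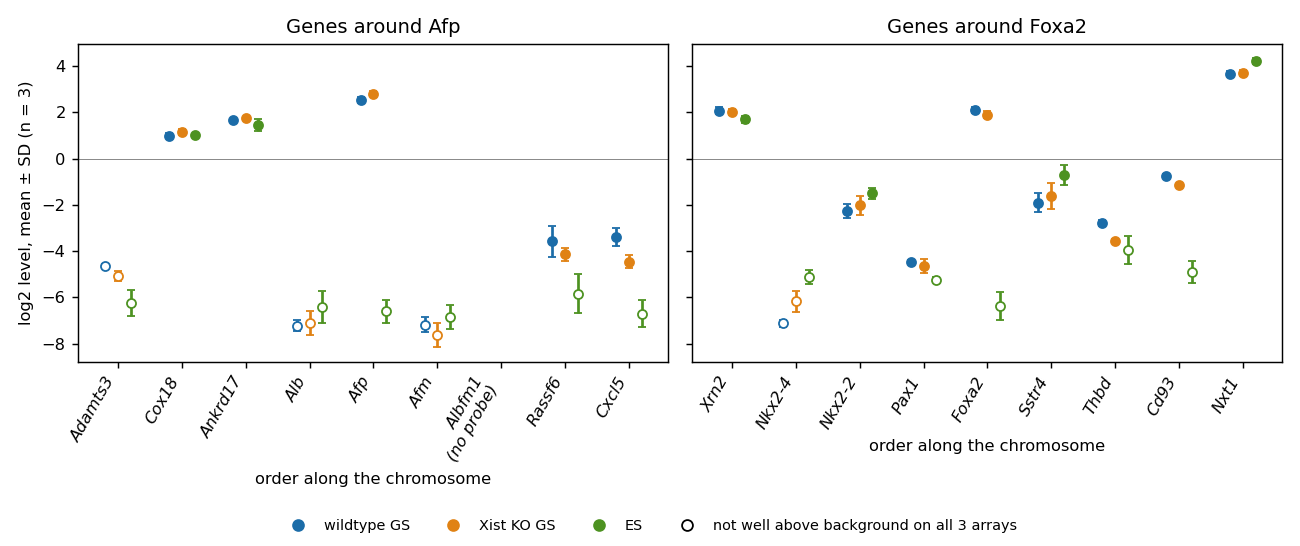
Mean log2 level ± SD (n = 3) of Afp and Foxa2 and of the 4 protein-coding genes on each side in RefSeq order, with open points not above background on all 3 arrays of a group. The ES point lies far below both GS points for Afp, Foxa2 and Cd93, while Alb and Afm have open points in every group. Levels of different genes cannot be compared.

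Over the 9 arrays the brighter Foxa2 probe and the Afp probe correlated at r = 0.998, and over the 6 GS arrays at r = -0.27, so the first value describes the split between GS and ES cells that chose both genes. The 2 Foxa2 probes correlated at r = 0.890 over the 6 GS arrays. The 6 genes most alike to Foxa2 over 9 arrays, of 14405 compared, were Castor2, Mpped2, Smpdl3a, Rnf130, Myt1l and Adcy10, and r over the GS arrays was between 0.48 (Smpdl3a) and 0.75 (Adcy10). For Afp they were Ralgds, Mttp, Eya2, Prok2, Adcy7 and Map3k8, with r over the GS arrays between 0.52 (Map3k8) and 0.97 (Eya2). Mttp, which loads lipid onto apolipoprotein B in yolk sac and liver, is also in the visceral endoderm list. High r was common, since 3489 genes had r above 0.95 with Foxa2 and 3574 with Afp.

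Other endoderm and liver genes were read from 7 lists. A fold given as at least a value is a bound under the main scaling and can be smaller under another. Such a gene exceeded background on no array of the lower group, so it did not pass the filter through that group. As a background for them, 36.6% of all features were called higher in wildtype GS and 39.7% higher in ES cells, and 37.1% and 37.2% for Xist KO GS cells, with median differences over all features of -0.08 and -0.05. Each gene named from a list was called at a limma adjusted p of 0.00772 or lower in the comparison with ES cells it was chosen for, apart from Foxa3 and the regulators at background, which were named after their values were seen.

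Among 20 tested regulators and paralogs of the members, 6 were higher in wildtype GS and 8 in ES cells, with a median difference of -0.16. Onecut2 (by 4.58), Zbtb20 (by 4.37), a repressor of Afp in the liver after birth, and Cebpa (by 2.71), a hepatocyte and fat cell factor, were higher in wildtype GS cells. In Xist KO GS minus ES the values were 4.08, 4.27 and 2.89. Cebpa exceeded background on 1 of the 3 ES arrays, and its wildtype GS difference was down to 0.86 under another scaling. Gata1 was at least 5.39-fold and Sox7 at least 5.09-fold higher in ES than in wildtype GS cells. Zhx2, another repressor of Afp, and Onecut1, Prox1 and Sox18 exceeded background on none of the arrays. Foxa3, the third FOXA paralog, differed by 0.31 in wildtype GS cells, not called, and by 0.72 in Xist KO GS cells, called, though down to -0.08 under another scaling.

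Definitive and gut endoderm genes were split, with 7 of 19 tested higher in wildtype GS and 7 higher in ES cells (median -0.26), but 6 and 11 with median scaling and 4 and 10 with normexp (medians -0.53 and -0.51). The signal Ihh was at least 4.53-fold higher and the pancreatic factor Pdx1 higher by 2.48 in wildtype GS cells, Pdx1 with 1 of 3 ES arrays above background and a difference down to 0.47 under another scaling. Cxcr4 was at least 2.00-fold higher, but its sign was not kept under every scaling. Cdx1, Trh and Otx2 were lower in wildtype GS cells by -5.27, -4.93 and -2.83. Primitive and parietal endoderm genes were also split, 9 and 9 of 24 (median -0.04), and 7 and 11 with normexp (median -0.20). Plat (tissue plasminogen activator) and the receptor Pdgfra were at least 14.7-fold and 10.9-fold higher in wildtype GS cells and Snai1 was higher by 2.74, while Tfpi and the laminin chain Lamc1 were lower by -3.99 and -2.55 and Sox7 was higher in ES cells as above.

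Visceral endoderm, the yolk sac tissue in which Afp is abundant, gave the most uneven list. Of 17 tested genes, 5 were higher in wildtype GS and 11 in ES cells, with a median of -2.85, and for Xist KO GS minus ES 5 and 10 with a median of -2.75. Rbp4 (retinol carrier), Cubn (endocytic receptor) and Mttp were higher in wildtype GS cells by 4.52, 4.02 and 3.64, and in Xist KO GS cells by 4.83, 4.15 and 3.73. Rhox5 and Tdh were lower in wildtype GS cells by -9.40 and -7.62, and Dpp4 was at least 35.8-fold higher in ES cells. Rhox5 and Tdh are also known as genes of ES cells or testis, and Rhox5 stood in the Sertoli list as well.

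Liver secreted protein genes leaned the other way, with 12 of 22 tested higher in wildtype GS and 7 in ES cells (median 0.63) and 12 and 6 for Xist KO GS (median 0.95), but with normexp background correction the counts were 5 and 10, and 7 and 7, and the medians -0.27 and -0.15. Hp (haptoglobin), C3 (complement) and Rbp4 were higher in wildtype GS cells by 4.91, 4.71 and 4.52. Hp exceeded background on 1 of the 3 ES arrays, and its difference was down to 2.60 under another scaling. Kng1 (kininogen) and Fetub were lower by -5.72 and -3.09. Gc (vitamin D binding protein) had a mean level of 0.69 in ES cells, and the same probe exceeded background on none of the GS arrays. Another Gc probe did so on some array of each GS group, so no bound is given. Of 36 genes on the array, 14 were not tested, Afm among them. Liver metabolism genes were mostly dim, with 13 of 31 tested, 5 of them higher in wildtype GS and 4 in ES cells (median -0.10). With normexp the counts were 0 and 7, and the median was 0.18 with quantile normalization and 0.35 with the authors' table. Cyp3a11 was at least 1.76-fold higher, Pck1 at least 1.23-fold higher with a sign not kept under every scaling, and Asgr1, the hepatocyte asialoglycoprotein receptor, higher by 1.26 in wildtype GS cells. Under another scaling the log2 difference was down to 0.001 for Cyp3a11 and 0.19 for Asgr1. Hal (histidase) was lower by -6.01 in wildtype GS cells and Fbp1 at least 6.81-fold higher in ES cells.

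Nodal and Activin signalling, which induces endoderm in the embryo, had 5 of 17 tested genes higher in wildtype GS and 9 in ES cells (median -0.45). Gdf3, Nodal and its nuclear partner Foxh1 were lower in wildtype GS cells by -7.71, -5.74 and -5.67. Fst (follistatin, an inhibitor of Activin), Smad3 and Smad2 were higher by 2.16, 1.78 and 1.43. Gdf3, Nodal and Foxh1 are also known as genes of ES cells. In Xist KO GS minus ES the same rule further named, over all lists, Frzb, at least 2.08-fold higher in Xist KO GS cells, Lrp2 and Lefty1, at least 25-fold and 37.9-fold higher in ES cells, and Apoa2 and Gnmt, lower in Xist KO GS cells by -2.81 and -0.68.

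**Figure D5:**
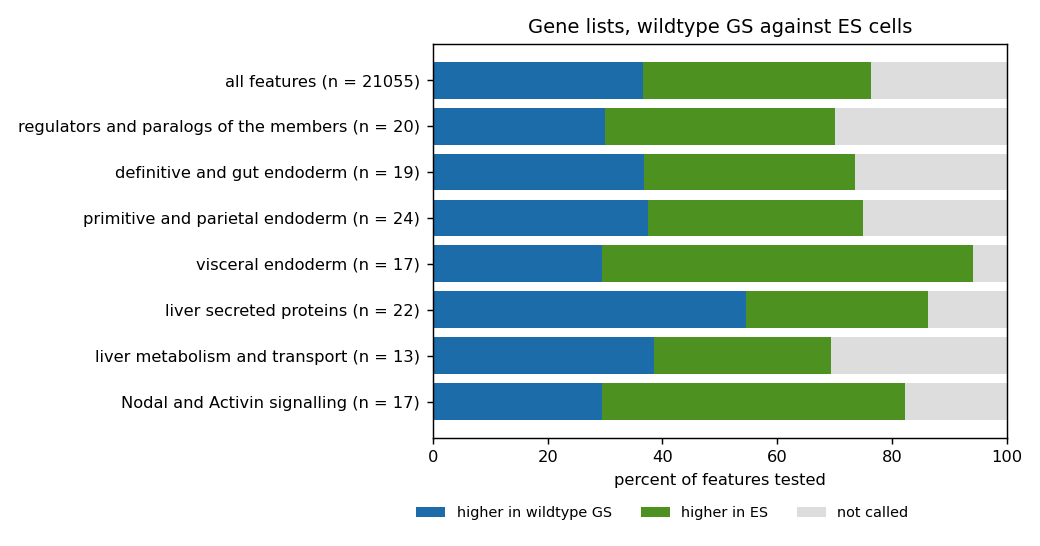
Percent of the tested genes of each list, and of all features, called higher in wildtype GS (blue), called higher in ES cells (green) or not called (grey), by limma adjusted p. The green share is 64.7% for visceral endoderm genes and 39.7% for all features, and the blue share is 54.5% for liver secreted genes and 36.6% for all features.

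Between Xist KO and wildtype GS cells, 0 of the 122 list genes tested were called by limma, and 27 (22.1%) had an unadjusted p under 0.05, against 12.6% of features. The lowest limma adjusted p was 0.185, for Fbp1 (0.79). Lamb1, a laminin chain, differed by 0.49 (limma adjusted p = 0.201) and Kng1 by -0.79 (limma adjusted p = 0.204). Fbp1, Dpp4 and Lefty1 exceeded background on none of the GS arrays, so their differences are between signals at background. The other genes with the smallest p in a list were Tle1, Onecut2, Cdx1, Kit, Thbd, Dpp4, Amn, Ahsg, Asgr1, Lefty1 and Furin, with differences between -0.77 (Thbd) and 1.22 (Dpp4).

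Markers of other cells that such cultures could hold were read alongside. Of 16 fibroblast markers, 13 were well above background on all wildtype and on all Xist KO GS arrays and 11 on all ES arrays. Their summed log2 level was 4.83 to 5.04 in wildtype GS, 4.57 to 4.72 in Xist KO GS and 5.34 to 5.56 in ES cells. Of the 13 tested 8 were called higher in wildtype GS and 3 in ES cells (median 0.64), and for Xist KO GS minus ES 6 and 4. Of 12 Sertoli markers, 6 exceeded background throughout each GS group, with a summed level of 0.30 to 0.59 and 0.35 to 0.49, and Amh and Fshr on none. In ES cells the sum was 6.60 to 6.62, and the list holds Rhox5. Of 6 Sertoli markers tested, 3 were called higher in wildtype GS than in ES cells: Wt1 by 1.23, Dhh by 0.59, and Inha. Another 3 were called lower, Rhox5 by -9.40, Inhbb by -3.40 and Clu by -1.80. Cldn11, Fshr, Gdnf, Inha and Sox9 exceeded background on none of the ES arrays. Of 7 Leydig markers on the array, 3 were above background in each group, and Cyp11a1, Hsd3b1 and Lhcgr on no GS array. Of 9 endothelial markers, 5 exceeded background throughout each GS group and 3 throughout ES cells, while Emcn, Sox18 and Tie1 did so on none of the GS arrays. In wildtype GS cells 2 were called higher, Erg by 4.54 and Cdh5 by 2.96, both at background on every ES array. Another 2 were called lower, Pecam1 by -1.81 and Kdr by -0.64. The summed level of the endothelial markers was 2.83 to 2.99 in wildtype GS, 2.57 to 3.43 in Xist KO GS and 3.31 to 3.75 in ES cells. Of 7 macrophage and blood markers on the array, 3 exceeded background throughout each GS group and 2 throughout ES cells, and Fcgr3 and Lyz2 on none of the GS arrays. Of 10 cardiac markers, 5 exceeded background throughout wildtype GS, 3 throughout Xist KO GS and 5 throughout ES cells. Of the 5 tested, 3 were called higher in wildtype GS and 2 in ES cells. Myh6, a heart myosin, was higher in wildtype GS cells by 4.86, and Nkx2-5 and Tnni3 were lower by -2.00 and -0.44. In Xist KO GS cells Myh6 had a mean of 4.17, but a flagged spot left an array without a value, which counted as not above background. Hand1, Mef2c and Tnnt2 exceeded background on none of the GS arrays. The part of these cells in the levels of Foxa2, Afp and Gata4 was not tested.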

How the data were processed

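Total RNA of 9 samples was hybridised to 9 single-colour arrays, with groups taken from the labels. The deposited scanner files give each spot's intensity, read by Feature Extraction 11.0.1.1 from Agilent per the file headers, on array design 026655 made on mm9. The processed signal is background-subtracted. A second table of intensity values made by the authors had column medians of 83.3 to 83.6 and a linear scale, and its log2 correlated with that of the scanner at r = 0.995 to 0.999. How it was normalized is not stated in any label or header.

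The log2 of that deposited processed signal was scaled by subtracting each array's 75th percentile. Control spots and flagged spots (157 to 327 per array) were left out, and spots of 1 probe were averaged, which left 39429 probes. Of these 26059 were named through RefSeq accessions (GRCm38.p6). A probe was kept if well above background on every array of 1 group, and the brightest kept probe stood for its gene, leaving 21055 features. The files hold no mean spot signal, so normexp (offset 50) used the median one. Limma 3.58.1 in R 4.3.3 was fitted to all 9 arrays (lmFit, eBayes, group as the only term, 6 residual degrees of freedom, two-sided), adjusted by Benjamini-Hochberg, and checked on simulated data. Array number limits the precision.

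The members and lists were chosen with earlier results of these data known. Named list genes are, per list and comparison with ES, up to 3 called genes of largest difference each way that exceeded background throughout the higher group, and, for Xist KO minus wildtype, the 2 of smallest p. A gene that this rule gave is not reported here. The 6 most alike genes were taken by Pearson r. Arrays within groups correlated at r = 0.986 to 0.995 and no 2 were identical. Alternatives were quantile and median scaling, normexp, the authors' table, other filters and probe rules, slide and replicate blocks, eBayes with trend, and each replicate left out. Treating each kept probe as its own feature was added after the data were seen.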

Additional observations from a re-analysis of the deposited data

How the results depend on the processing

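The number of features called between Xist KO and wildtype GS cells was 5 and moved with the processing, while 0 members were called in all 18 alternatives. It was 11 with quantile normalization, 11 with the authors' table, 12 with eBayes trend, 3 with no filter on dim probes, 3 with the slide fitted as a fixed term and 2 on slide 1 alone. Leaving out 1 replicate gave 3 to 18, with 18 without Xist KO GS replicate 1 and 3 without wildtype GS replicate 1 or 2 or Xist KO GS replicate 2. The cause was not tested. Deviations of same-numbered arrays correlated at -0.146 to 0.04 between groups, which cannot show whether the samples were handled as pairs. The fit with the replicate number as a block called 3 features and 0 members. The Xist KO minus wildtype difference kept its sign in every alternative for Foxa1 (-0.91 to -0.16), Foxa2 (-0.31 to -0.17), Gata4 (0.14 to 0.38), Hnf4a (0.14 to 0.37) and Afp (0.17 to 0.37).

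Against ES cells, Afp ranged from 5.39 to 9.58 in wildtype GS and from 5.69 to 9.77 in Xist KO GS cells, and Foxa2 from 5.01 to 8.79 and from 4.80 to 8.58, each lowest with normexp, whose offset lifts dim signals. With the slide as a fixed term, wildtype GS minus ES was 8.89 for Afp and 8.31 for Foxa2. Hnf4a ranged from -2.37 to -1.15 in wildtype GS cells. Gata4 in Xist KO GS cells reached 0.004 without ES replicate 2. Counts called against ES cells stayed within 1.5 times of the main ones, 12429 to 19601 for wildtype and 12250 to 19173 for Xist KO GS cells. The share of calls higher in wildtype GS cells was 48.0%, and 39.5% with median scaling or 36.9% with normexp, and for Xist KO GS cells 50%, 41.1% and 39.9%. The median of all features then moved from -0.08 to -0.354 and -0.317 for wildtype GS. Signals near background limit Alb, Ttr, Gata6 and Sox17.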
